A study of Mus musculus with 6 samples.

Results

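Fam151a, Acot11 and Mroh7 are 3 genes that lie side by side on mouse chromosome 4 and partly on top of each other. They were taken by symbol from a table of 45777 genes, and all 3 were found and passed the filter on low counts. Fam151a was chosen by its difference between the groups in these same libraries, the greatest among well-measured genes, and Acot11 and Mroh7 because they overlap it. The difference in Fam151a is therefore given as a description, with no test, and the question is how far its neighbours share it. Total RNA of mouse small intestine was sequenced in 3 libraries labelled PKCzeta overexpression (replicates 2-1, 4-1 and 4-2) and in 3 control libraries whose titles carry GFP, the green fluorescent protein (replicates 1-1, 1-4 and 3-1). The titles of all 6 also carry the letters DIO, which no source used here explains, and the strain, age, diet, vector, promoter and targeted cells are likewise not given in those sources.

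The gene tests compare PKCzeta-labelled with GFP-labelled libraries in edgeR's quasi-likelihood test over 18456 genes. Levels are CPM, the read counts of a gene scaled to library size with TMM factors, unless TPM (per length) is named. The counts of all genes summed to 77573133 to 87572356 per library with the PKCzeta label and 85411847 to 93742978 with the GFP label. Prkcz, which encodes PKCzeta, had 82.5, 100.07 and 57.0 CPM in PKCzeta libraries 2-1, 4-1 and 4-2 and 70.5, 98.6 and 96.9 CPM in GFP libraries 1-1, 1-4 and 3-1 (log2 fold change -0.15, SE 0.24, edgeR adjusted p 0.950). The targeted gene did not go with the labels, so a direction here is one between the libraries labelled PKCzeta and those labelled GFP. Markers fitted the labelled tissue: the enterocyte list summed to 20378 to 41676 CPM with the PKCzeta label and 50481 to 60659 CPM with the GFP label. Ileal genes were abundant, with Fabp6, the ileal bile acid binding protein, at 2544 to 2949 CPM with the PKCzeta label and 2601 to 4215 CPM with the GFP label.

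FAM151A is a membrane protein that in humans is made mainly in kidney and small intestine. Its family is related to menorin, a protein that shapes the dendrites of sensory neurons in the worm Caenorhabditis elegans. ACOT11, also called THEM1 or BFIT, splits long-chain fatty acyl-CoA into a free fatty acid and coenzyme A, and was described first in brown fat of cold-exposed mice. MROH7 belongs to the maestro family of proteins built from HEAT repeats, and little is known of its function. In the intestine, acyl-CoA thioesterases set how much activated fatty acid is at hand for re-esterification or oxidation, while brush border and transport proteins mark the absorptive enterocyte.

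The RefSeq gene table for GRCm38, the assembly that mm10 names, gives Fam151a (Entrez 230579) from 106733915 to 106748292 on the plus strand of chromosome 4. Acot11 (Entrez 329910) runs on the minus strand from 106744555 to 106805007, so the ends of Fam151a and Acot11 meet tail to tail and overlap by 3738 bases. Mroh7 (Entrez 381538) runs on the minus strand from 106680417 to 106736534, and reaches 2620 bases past the start of Fam151a. In GENCODE M21, which uses the same build, Fam151a has 8 exons and 1923 bases of transcript. The long Acot11 model has 5689 bases, and its last exon, from 106744555 to 106748484, is nearly all 3′ UTR. Exons 5 to 8 of Fam151a, 1263 bases or 65.7% of its transcript, lie within that UTR on the opposite strand, and make up 22.2% of the long Acot11 transcript. The short Acot11 model of 2939 bases shares 754 bases, those of exon 8. Mroh7 models of GENCODE end 2963 bases short of Fam151a and share 0 exon bases with it. Only the longer RefSeq span of Mroh7 overlaps Fam151a, in a stretch that holds exons 1 and 2 of Fam151a. The RefSeq exons of Mroh7 were not at hand, so whether any exon bases are shared there is not known.

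**Figure D1:**
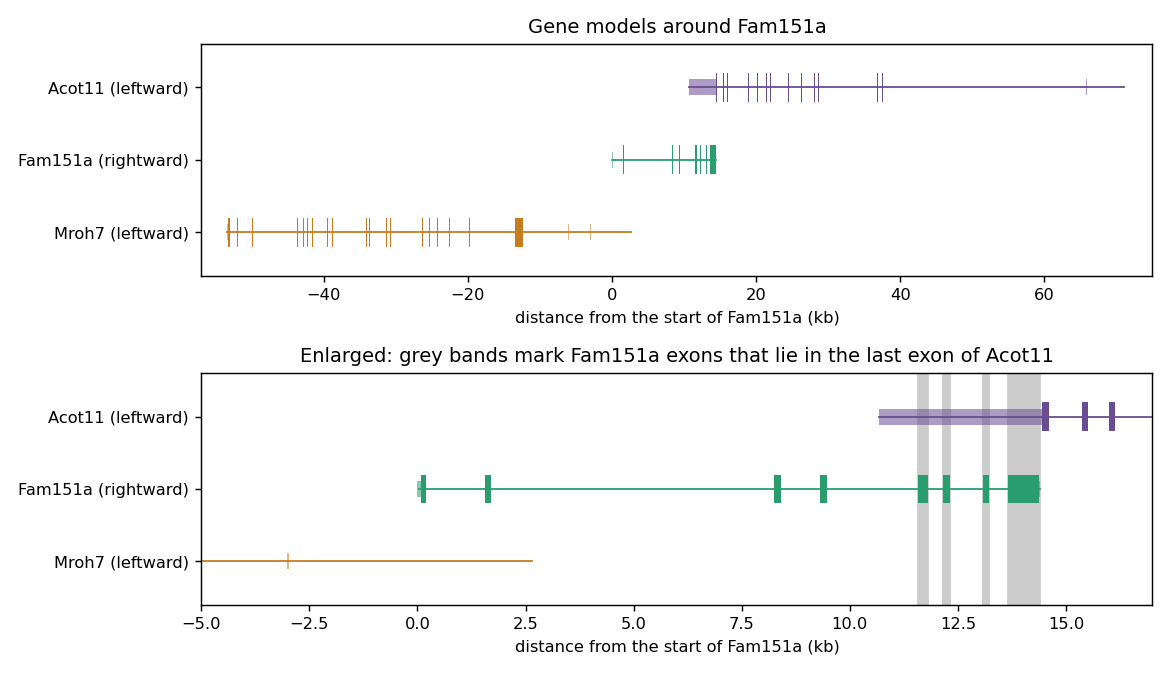
Gene models by distance from the start of Fam151a in kb, whole and enlarged, with thick boxes for coding and thin boxes for non-coding exon parts and lines for the RefSeq spans. The last 4 exons of Fam151a (grey bands) lie inside the 3′ UTR of Acot11, while Mroh7 touches Fam151a only by its RefSeq span.

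The end of the Fam151a reading frame shows how the genes share bases. The 30 bases at chr4:106748240-106748269 end the Fam151a coding sequence on the plus strand and are 3′ UTR of Acot11 on the minus strand, and the capitals mark the Fam151a stop codon and its complement (GENCODE M21 transcripts, GRCm38).
Fam151a, plus strand: gtggaaggcttccctggggagtcaaggTGA
Acot11, minus strand: TCAccttgactccccagggaagccttccac
A fragment that lies wholly within these bases can be given to its gene only by its strand. Per the labels' protocols the library kit keeps the strand, but no source used here says whether the counting used it.

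Fam151a stood far lower in every PKCzeta-labelled library. Its count was 155, 283 and 224 reads in PKCzeta libraries 2-1, 4-1 and 4-2, against 4400, 10523 and 1230 reads in GFP libraries 1-1, 1-4 and 3-1. In CPM the values were 1.78, 3.48 and 2.14 with the PKCzeta label and 55.5, 120.3 and 14.9 with the GFP label. The groups did not overlap, and the lowest GFP library was 4.28 times the highest PKCzeta library. The means were 2.47 ± 0.894 CPM with the PKCzeta label and 63.5 ± 53.1 CPM with the GFP label (n = 3 libraries per label, ± SD). On the log2 scale the difference was -4.69 (SE 0.76). Without GFP replicate 1-4, the highest library, it was -3.83. The spread within a label was unequal. The highest library was 1.95 times the lowest with the PKCzeta label and 8.08 times the lowest with the GFP label. The GFP range of 3.01 log2 units exceeded that of 99.1% of the 10207 genes with a mean of at least 5 CPM, whose median was 0.495. Of the 1147 such genes whose groups did not overlap, Fam151a had the greatest difference, which is how it was chosen and so not a finding. The next was Plb1, a brush border phospholipase, at -3.75 (SE 1.28).

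Acot11 overlapped between the labels. It had 2751, 3450 and 4432 reads in PKCzeta libraries 2-1, 4-1 and 4-2, against 3537, 6865 and 3184 in GFP libraries 1-1, 1-4 and 3-1. The levels were 31.6, 42.4 and 42.4 CPM with the PKCzeta label and 44.6, 78.5 and 38.5 CPM with the GFP label. One library, GFP 1-4, lay above the other 5, which ran from 31.6 to 44.6 CPM. The GFP libraries spanned 1.03 log2 units, more than in 87.8% of the 10207 genes. The means were 38.8 ± 6.23 and 53.9 ± 21.5 CPM for PKCzeta and GFP (n = 3 libraries per label, ± SD). The log2 difference was -0.47, with SE 0.28 and a 95% interval of -1.12 to 0.17. The edgeR adjusted p was 0.917, and an exact permutation test, two-sided, gave p = 0.4 (0.1 is the least possible with 3 libraries per label). Without GFP replicate 1-4 the log2 fold change was -0.098.

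Mroh7 had few reads, and its GFP libraries stood in the same order as those of Fam151a, an order found in 3051 of the 18456 genes. The counts were 29, 42 and 27 in PKCzeta libraries 2-1, 4-1 and 4-2, against 123, 210 and 58 in GFP libraries 1-1, 1-4 and 3-1. That is 0.333, 0.516 and 0.258 CPM with the PKCzeta label and 1.55, 2.40 and 0.702 CPM with the GFP label. The groups did not overlap, and GFP 1-4 was again highest and GFP 3-1 nearest to the PKCzeta libraries. The means were 0.369 ± 0.133 CPM with the PKCzeta label and 1.55 ± 0.849 CPM with the GFP label (n = 3 libraries per label, ± SD). The log2 difference was -2.07, with SE 0.52 and a 95% interval of -3.28 to -0.87. Its adjusted p from edgeR was 0.858, and the exact permutation test, two-sided, gave 0.1, the least possible. Without GFP replicate 1-4 the log2 difference was -1.61.

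**Figure D2:**
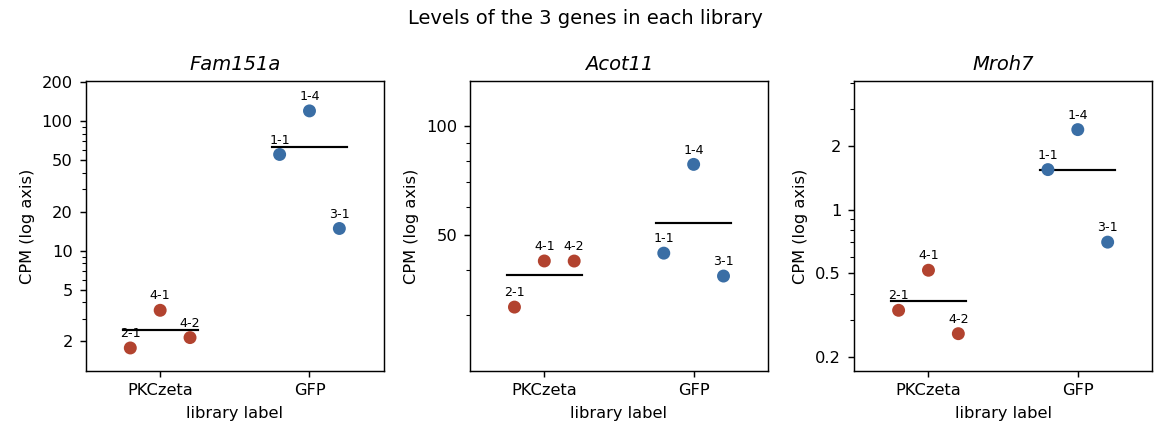
CPM of each gene by library label on log axes, with 1 point per library, its replicate number above it and the group mean as a bar. Fam151a and Mroh7 separate the labels, while the Acot11 points overlap and GFP 1-4 stands above the other 5.

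Across the 18456 genes, edgeR called 0 at an adjusted p of 0.05 (0% called), so that Acot11 and Mroh7 were not called. Unadjusted, 1012 genes (5.48%) were under 0.05, Mroh7 with 0.00414 among them in edgeR, while DESeq2 called 76 genes and limma voom 0. Of the 2 neighbours, Mroh7 had all its PKCzeta libraries below all its GFP libraries, as had 5.66% of all tested genes. DESeq2 gave Mroh7 an adjusted p of 0.0465.

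Per length, the order of the genes turned round between the labels. In TPM, Fam151a was at 1.12, 2.49998 and 1.80 in PKCzeta libraries 2-1, 4-1 and 4-2 and at 34.7, 80.03 and 8.53 in GFP libraries 1-1, 1-4 and 3-1. Acot11 was at 6.64, 10.3 and 12.0 TPM with the PKCzeta label and at 9.36, 17.5 and 7.42 TPM with the GFP label. Fam151a was thus 0.168, 0.243 and 0.150 times Acot11 with the PKCzeta label and 3.70, 4.57 and 1.151 times Acot11 with the GFP label. Mroh7 stayed below both, at 0.0902 to 0.160 TPM with the PKCzeta label and 0.174 to 0.737 TPM with the GFP label. In bulk RNA, fewer cells that make a transcript and less transcript per cell cannot be told apart.

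The sizes of the counts can be set side by side for the shared bases, under an assumed even coverage that the table does not measure. If Acot11 reads were spread evenly over its long model, 611, 766 and 984 of them would lie in the bases shared with Fam151a in PKCzeta libraries 2-1, 4-1 and 4-2. The Fam151a counts in those libraries were lower, at 25.4%, 36.9% and 22.8% of these numbers. In GFP libraries 1-1, 1-4 and 3-1 the same arithmetic gives 785, 1524 and 707 Acot11 reads, and Fam151a counts were 560%, 690% and 174% of them.

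The reverse arithmetic concerns Acot11. Spread evenly over its model, Fam151a would place 102, 186 and 147 reads in the shared bases in PKCzeta libraries 2-1, 4-1 and 4-2, and 2890, 6911 and 808 reads in GFP libraries 1-1, 1-4 and 3-1. In GFP 1-4 this number, 6911, lay just above the whole Acot11 count of 6865, and in GFP 1-1 it was below the Acot11 count of 3537. Acot11 was higher in GFP 1-4 than in any other library, which is also the library with the most Fam151a reads. What part of that excess came from the shared bases was not tested, since the table gives no reads by position. Coverage along a transcript is seldom even, so these numbers are orders of size only.

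**Figure D3:**
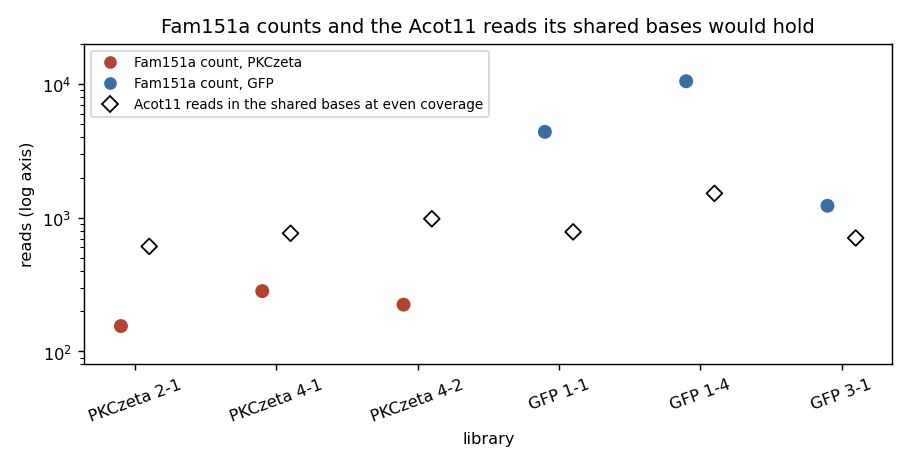
Fam151a counts (points, PKCzeta libraries left and GFP libraries right) and the Acot11 reads that even coverage would place in the shared bases (diamonds), on a log axis of reads. Fam151a lies below the diamonds in the 3 PKCzeta libraries and above them in the 3 GFP libraries.

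Counts and FPKM of the same gene give the transcript length used in the table, since FPKM divides by it. For a gene with 1 transcript model this length is fixed, and for a gene with several it moves when reads are spread differently over the models. Of 2845 coding genes with 1 model and at least 100 reads in every library, 95% kept it within 0.257% of their own median. Acot11 was 2.97 to 2.98 times as long as Fam151a in the PKCzeta libraries and 2.98 times in each GFP library, close to the 2.96 of the long GENCODE model and far from the 1.53 of the short one. Its length moved by at most 0.348%, so the length behind its FPKM was nearly the same in all 6 libraries.

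Mroh7, with 8 RefSeq models, moved more in length than Acot11. Its length was 2.32, 2.32 and 2.31 times that of Fam151a in PKCzeta libraries 2-1, 4-1 and 4-2, against 2.25, 2.17 and 2.32 times in GFP libraries 1-1, 1-4 and 3-1. Its deviation from the gene's own median was -3.05% in GFP 1-1 and -6.52% in GFP 1-4, and within 0.375% in the other 4. GFP 1-1 and 1-4 are the libraries with the most reads of both Mroh7 and Fam151a. The Mroh7 count was 18.7%, 14.8% and 12.1% of the Fam151a count with the PKCzeta label and 2.80%, 2.00% and 4.72% of it with the GFP label. Which Mroh7 models took the added reads, and whether they came from Fam151a, was not tested. How far the length moves in other genes with several models and as few reads was not tested either.

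The other genes around the locus had differences near the median of all genes. Within 500 kb of it, RefSeq has 28 genes with a row in the table, of which 16 passed the filter, the 3 members among them. Of the other 13, 6 had lower and 7 higher values with the PKCzeta label, with a median log2 fold change of 0.041, against 0.035 for all genes tested. The groups overlapped in all 13, and edgeR called 0. The nearest upstream neighbour, Ttc4, a co-chaperone gene just beyond Mroh7, had 25.1, 27.1 and 29.3 CPM with the PKCzeta label and 21.7, 33.6 and 24.02 CPM with the GFP label (log2 fold change 0.041, SE 0.20). Pars2, the mitochondrial prolyl-tRNA synthetase, had 0.29 (SE 0.28), and Ttc22 had -0.20 (SE 0.19). On the other side Ssbp3, a cofactor of LIM-homeodomain proteins 163 kb away, had -0.092 (SE 0.19) and Mrpl37, of the mitochondrial ribosome, had 0.060 (SE 0.28).

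Farther out, the genes averaging 1 CPM or more included Usp24, a ubiquitin protease gene, with a log2 fold change of 0.21 (SE 0.16), and Cyb5rl, with 0.12 (SE 0.37). Tceanc2 had 0.13 (SE 0.23), Tmem59 had -0.26 (SE 0.22) and Lrrc42 had -0.34 (SE 0.28). The adjusted p from edgeR was 0.917 or more for all 13.

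**Figure D4:**
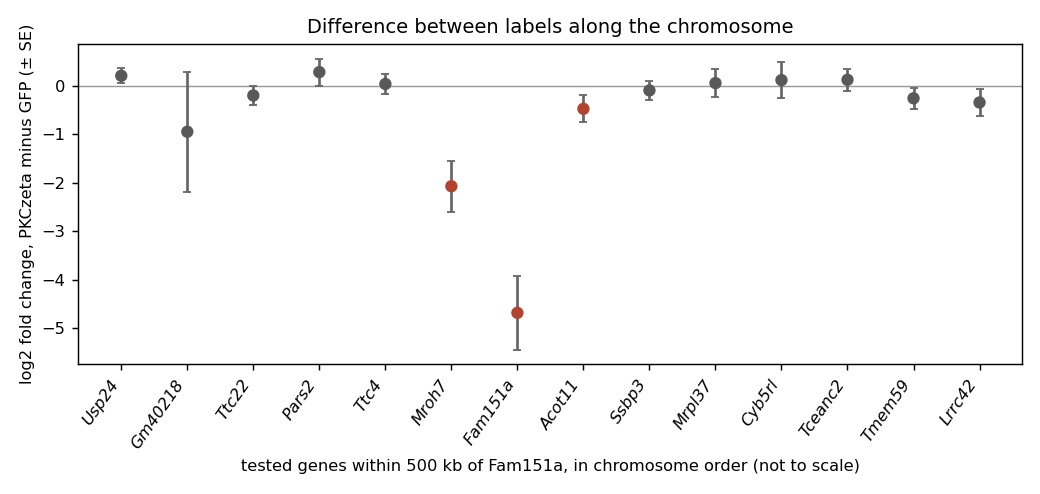
Log2 fold change (PKCzeta minus GFP, with its SE) of 14 of the 16 tested genes within 500 kb of Fam151a, in chromosome order and not to scale, with the 3 members in red. Fam151a and Mroh7 stand at -4.69 and -2.07, Acot11 at -0.47, and the other genes shown that average 1 CPM or more lie between -0.34 and 0.29.

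The family members of the 3 genes elsewhere in the genome were set beside them. Fam151b on chromosome 13, the only other gene of its family, had 3.16, 2.24 and 2.01 CPM with the PKCzeta label and 2.74, 2.77 and 2.19 CPM with the GFP label. Its groups overlapped, and the log2 fold change was -0.054 (SE 0.29, edgeR adjusted p 0.985). In PKCzeta libraries Fam151b and Fam151a were at about the same CPM, whereas in GFP libraries Fam151a was far above its relative.

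Of 15 listed acyl-CoA thioesterase genes, Acot11 among them, 13 were tested, 6 lower and 7 higher with the PKCzeta label, 0 of them past the threshold, with a median log2 fold change of 0.021. Acot12, an acetyl-CoA thioesterase, had the greatest difference, with 3.41, 9.47 and 5.38 CPM in PKCzeta libraries 2-1, 4-1 and 4-2 against 18.1, 22.2 and 6.94 CPM in GFP libraries 1-1, 1-4 and 3-1. Its groups overlapped, at -1.37 (SE 0.50, edgeR adjusted p 0.871). Acot1, a cytosolic form induced through PPARalpha, had 0.78 (SE 0.44), and its mitochondrial relative Acot2 had 0.21 (SE 0.30). These neighbouring copies resemble each other, and reads may be split between them. Acot9 and Acot13, of mitochondria, had 0.16 (SE 0.16) and -0.15 (SE 0.18), Acot8, of peroxisomes, had -0.25 (SE 0.21), and Acot4, Acot7 and Them4 lay between -0.10 and 0.060.

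Of 10 MROH genes 6 were tested, 5 of them lower, with Mroh7 itself, and 1 higher, 0 past the threshold, and 4 had no read. Mroh1, the only relative above 1 CPM, had 25.03, 22.8 and 22.3 CPM with the PKCzeta label and 25.6, 34.4 and 28.3 CPM with the GFP label (log2 fold change -0.33, SE 0.18, edgeR adjusted p 0.917). Its groups did not overlap, though they nearly touch.

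The genes whose levels ran most like those of Fam151a over the 6 libraries were sought by Pearson's r of log2 CPM among 406 genes that averaged 5 CPM or more and ranged over at least 2 log2 units. The measure takes in the split between the labels and is a description of these libraries. The 10 with the highest r were Ugt2a3 (0.980), Slc5a4b (0.962), Tsku, Adh6a, Apoa4, Enpp3, Enpp7, Plb1, Dnase1 and Npl (0.920). Ugt2a3, a glucuronidation enzyme on chromosome 5, had 2.36, 3.26 and 2.38 CPM in PKCzeta libraries 2-1, 4-1 and 4-2 and 9.88, 19.1 and 4.48 CPM in GFP libraries 1-1, 1-4 and 3-1. GFP 1-4 was highest and GFP 3-1 nearest to the PKCzeta libraries, as in Fam151a. Slc5a4b, of the sodium-glucose transporter family, had 7.61, 15.4 and 7.004 CPM with the PKCzeta label and 36.6, 122.7 and 27.7 CPM with the GFP label. Plb1 had 8.14, 87.2 and 5.87 CPM with the PKCzeta label and 544, 725 and 96.1 CPM with the GFP label. Its PKCzeta library 4-1 lay close to GFP 3-1, which Fam151a did not show. Apoa4, an apolipoprotein of chylomicrons, had 538, 857 and 580 CPM with the PKCzeta label and 2081, 3034 and 772 CPM with the GFP label, so its groups overlapped.

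Mroh7 had Fam151a among its 5 nearest genes of 4378, with r of 0.981, after Adh4 (0.999), Kcnj13 (0.998), Ugt2a3 and Creb3l3. Here too r takes in the split between the labels, for which Fam151a was chosen, so it is a description only. Kcnj13, a potassium channel gene, had 1.09, 2.09 and 0.871 CPM in PKCzeta libraries 2-1, 4-1 and 4-2 and 8.03, 11.5 and 2.69 CPM in GFP libraries 1-1, 1-4 and 3-1. Kcnj13 lies on chromosome 1 and Adh4, an alcohol dehydrogenase gene, on chromosome 3. They were picked for their likeness to Mroh7. Acot11 had r of 0.767 with Fam151a. Its 5 nearest genes of 2666 were Dhrs1 (0.976), Itga8, Cidec, Por and Homer2. Dhrs1, a short-chain dehydrogenase gene, had 16.6, 21.96 and 20.9 CPM with the PKCzeta label and 25.3, 37.5 and 21.96 CPM with the GFP label, and like Acot11 stood highest in GFP 1-4.

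Markers of the upper small intestine were mixed. Of 12 listed proximal genes 10 were tested, 8 lower and 2 higher with the PKCzeta label, 0 past the threshold (median log2 fold change -0.63), and Trpv6 had no read. The list summed to 798, 1340 and 755 CPM in PKCzeta libraries 2-1, 4-1 and 4-2 and 2667, 3814 and 1126 CPM in GFP libraries 1-1, 1-4 and 3-1, with Apoa4 as its greatest part. Gata4, a transcription factor of the upper intestine, had 1.12, 0.738 and 1.08 CPM with the PKCzeta label and 7.22, 9.70 and 1.79 CPM with the GFP label. Lct, the lactase gene, had 3.20, 63.3 and 2.31 CPM with the PKCzeta label and 116, 200.3 and 39.6 CPM with the GFP label. Its PKCzeta library 4-1 lay above GFP 3-1, so Lct overlapped where Fam151a did not. Gata4, Lct and Apoa4 were singled out after their values were seen, and the other tested genes of the list differed less. Rbp2, Gata6 and Onecut2 had log2 fold changes of -1.07, -0.60 and -0.65, and of these only Gata6 had groups that did not overlap. Slc40a1, the iron exporter, had a log2 fold change of 0.095, S100g, a calcium-binding protein gene, 0.18, Cybrd1, a ferric reductase gene, -0.098, and Fabp1, a fatty acid binding protein gene, -0.32. Of the 10, 1 (Gata4) had the GFP order of Fam151a with all PKCzeta libraries below, as had 0.780% of all genes tested. The same held for 3 of 14 enterocyte genes, 1 of 14 microvillus genes and 0 of 9 distal genes, so it was not particular to the proximal list.

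Among the 9 distal genes, all tested, 7 were lower and 2 higher (median -0.54, 0 past the threshold). The list summed to 5799 to 7853 CPM with the PKCzeta label and 6861 to 10485 CPM with the GFP label. Fgf15 had the greatest difference of the 9, at -2.64 (SE 1.01), and its groups overlapped. It had 7.69, 4.97 and 10.8 CPM in PKCzeta libraries 2-1, 4-1 and 4-2. In GFP libraries 1-1, 1-4 and 3-1 it had 21.9, 6.27 and 118.5 CPM, highest where Fam151a was lowest among the GFP libraries. GFP 1-4 was the highest of the 6 libraries for 17.6% of all genes tested and 21.7% of those averaging 5 CPM or more. The count was 5 of 6 for Paneth cell genes, 7 of 14 for enterocyte genes and 6 of 13 for thioesterases. It was 5 of 14 for microvillus genes, 4 of 10 for proximal genes and 1 of 8 for immune cell genes. Distal genes had 0 of 9, goblet cell genes 0 of 7 and smooth muscle genes 0 of 8. The smooth muscle list had its lowest sum in GFP 1-4, at 836 CPM, against 1785 and 1810 CPM in GFP 1-1 and 3-1. Mitochondrial genes held 3.37% of the counts in GFP 1-4, against 9.08% in GFP 1-1 and 10.7% in GFP 3-1. With the PKCzeta label they held 9.19%, 5.67% and 2.92% in libraries 2-1, 4-1 and 4-2. All 14 enterocyte markers were lower (median -0.92, 0 past the threshold), and 13 of 14 microvillus genes (median -0.52). Of all genes tested, 45.7% were lower. All PKCzeta libraries lay below all GFP libraries in 8 of 14 enterocyte and 8 of 14 microvillus genes, against 5.66% of all genes tested. The same held for 2 of 10 proximal and 1 of 9 distal genes. The lists are not separate, since the enterocyte list shares Vil1 and Anpep with the microvillus list and Lct, Fabp1 and Apoa4 with the proximal list. The part that enterocytes or the region of gut have in the Fam151a difference was not tested.

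**Figure D5:**
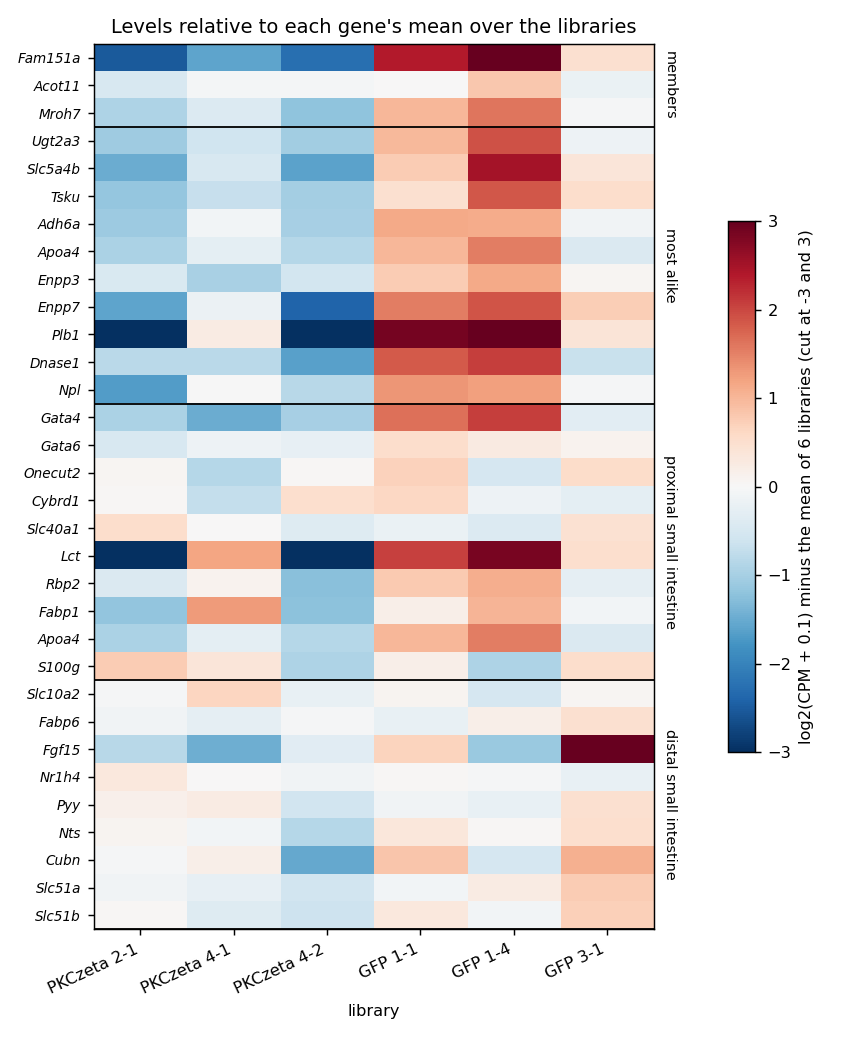
Levels in each library, as log2(CPM + 0.1) minus the gene's mean over the 6 libraries, for the 3 members, the 10 genes most like Fam151a, and the tested genes of the proximal and distal lists (red above, blue below the mean, PKCzeta libraries left). The 10 genes, Gata4, Lct and Apoa4 are high in GFP 1-1 and 1-4, and Acot11 spans a narrower range than Fam151a.

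Kidney, pancreas and liver marker lists were low, and lists of cell types within or beside the gut wall were not. Of 11 kidney genes 6 had no read, among them Kap and Aqp2, and the list summed to 0.541 to 1.10 CPM with the PKCzeta label and 0.309 to 0.569 CPM with the GFP label, below Fam151a in every library. Among 7 brown fat genes Elovl3 had no read and Ucp1 at most 0.0242 CPM. The brown fat list summed to 31.5 to 69.4 CPM with the PKCzeta label and 47.2 to 92.8 CPM with the GFP label, most of it from Cox7a1 and Ppargc1a, which other tissues also use. White fat genes summed to 54.6 to 92.3 and 83.7 to 112 CPM, smooth muscle genes to 1194 to 1458 and 836 to 1810 CPM and goblet cell genes to 13649 to 16165 and 16236 to 20760 CPM for PKCzeta and GFP. The hepatocyte list summed to 8.73 to 25.1 and 5.08 to 6.85 CPM, the pancreatic list to 4.75 to 5.24 and 4.18 to 4.53 CPM, and Paneth and immune cell lists overlapped between the labels.

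The upstream sequences of the 2 genes that separated the labels are shown for the words that GATA and HNF1 factors are known to bind. The sequences are from RefSeq (GRCm38.p6), end at the start of a GENCODE transcript (for Mroh7 other models start elsewhere), and carry any match in capitals.
Fam151a, chr4:106733665-106733888, plus strand: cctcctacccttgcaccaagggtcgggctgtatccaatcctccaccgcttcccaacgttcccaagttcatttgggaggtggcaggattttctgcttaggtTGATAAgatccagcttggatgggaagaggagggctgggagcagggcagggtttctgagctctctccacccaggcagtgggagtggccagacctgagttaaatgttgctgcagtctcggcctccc
Mroh7, chr4:106727977-106728180, minus strand: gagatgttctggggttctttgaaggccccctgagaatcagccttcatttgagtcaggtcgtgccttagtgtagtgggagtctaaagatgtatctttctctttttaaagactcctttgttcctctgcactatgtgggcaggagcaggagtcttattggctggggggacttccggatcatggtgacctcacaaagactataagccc
Fam151a held 1 GATA word (the words AGATAA and TGATAA, or AGATAG and TGATAG, on either strand), as did 26.5% of 32851 windows of 250 bases upstream of RefSeq starts. It held 0 HNF1 words (GTTAAT on either strand, in 6.43% of windows) and 0 HNF4 words (CAAAGTCCA, in 0.384%). Mroh7 held 0 of all 3, as did 1 Acot11 start, while the window of another Acot11 start held 1 HNF1 word. A match is a run of letters, not a measured site.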

How the data were processed

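Per the file headers, each gene has a count, FPKM and TPM in every library. The counts were deposited as raw whole numbers. The FPKM values were scaled by the authors to transcript length and library size, and the deposited TPM values to the same sum in each library. Per the labels' protocols, ribosomal RNA was depleted and the libraries are stranded. The submitters' processing notes name mm10 as the build, and HISAT2, StringTie, Trimmomatic and FastQC as tools, with no versions. The sources used here do not give the counting program or its strand setting.

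The test on counts was that of edgeR 4.0.16, run in R 4.3.3 (filterByExpr, TMM, robust quasi-likelihood F test, two-sided, Benjamini-Hochberg over 18456 genes). A positive log2 fold change means a higher level with the PKCzeta label. Log2 CPM for r and permutation used a prior count of 2. Positions come from RefSeq, to which 45679 of 45777 gene IDs were matched, and exons from GENCODE M21, and they count from 1. The scripts were tested on simulated data.

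The members, lists and rules were chosen with earlier results of these data known. Named genes are the members, Fam151b, Prkcz, genes within 500 kb or in the thioesterase and MROH families averaging 1 CPM or more, and the genes of highest r, and list markers beside them were named after their values were seen. Some genes within 500 kb are not reported here by name. Alternatives were other scalings, filters, limma 3.58.1 (voom, and log2 TPM or FPKM), DESeq2 1.42.0, the table without 758 rows of ribosomal, mitochondrial and receptor segment genes, and leaving out each library. No label ties the libraries to separate animals, so the p-values cover the spread between these libraries, which may be technical.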

Additional observations from a re-analysis of the deposited data

How the results depend on the processing

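The log2 fold change of Fam151a stayed below 0 in all 16 alternatives, from -5.15 to -3.29. The least were -3.46 on log2(TPM + 1) and -3.29 on log2(FPKM + 1), where the added 1 weighs on low values. Leaving out each library gave -5.15 to -3.83. Acot11 ran from -0.66 to -0.098, with an adjusted p of at least 0.712, and without 1 library from -0.66 to -0.098. Mroh7 ran from -2.41 to -0.27 in 15 alternatives, and without 1 library from -2.41 to -1.61. With a mean of at least 1 CPM it was not tested. DESeq2 gave it -2.08 and an adjusted p of 0.0465, where the adjusted p was 0.563 to 1.00 elsewhere. DESeq2 called 76 genes, 36 lower and 40 higher, and the cause of that difference was not tested, while the other 15 alternatives called 0. The median of the neighbours within 500 kb ran from -0.060 to 0.19, and the median of all genes was 0.14, 0.23 and 0.12 on log2(TPM + 1), log2(TPM + 0.1) and log2(FPKM + 1), against 0.035. No paired analysis was possible because the labels give the groups no shared library numbers. Within a label, GFP 1-1 and 1-4 share their first number, as do PKCzeta 4-1 and 4-2. The titles do not say what that number stands for, so whether such libraries are independent is not known. Depth limits Mroh7, with 27 to 42 reads in PKCzeta libraries and 58 to 210 in GFP libraries.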
